A study of Mus musculus with 3 samples.

Results

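Monocytes of the tendon injury site that carried little or no C1q transcript were examined 3 days after burn/tenotomy in mice. They were selected cell by cell from unique molecular identifier (UMI) counts. A cell needed at least 200 detected genes, at most 20% mitochondrial UMIs, at least 1 *Csf1r* UMI, and a sum of at least 3 UMIs over *Ccr2*, *Ly6c2*, and *Ms4a4c*. It also needed fewer than 10 UMIs per 10000 of the complement genes *C1qa*, *C1qb*, and *C1qc*, fewer than 30 per 10000 of the class II genes *H2-Aa*, *H2-Ab1*, and *H2-Eb1*, less than 2% of its UMIs from *S100a8* and *S100a9*, and fewer than 5 UMIs of the cycling genes *Mki67* and *Top2a*. In the tendon injury site, 665 of 4978 cells that passed the cell filter met this rule (13.4%, 95% Clopper-Pearson interval 12.4% to 14.3%), out of 9002 passing cells in the 3 libraries. They are called tendon monocytes here.

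The study followed immune cells after a dorsal burn combined with a full cut of the Achilles tendon, a mouse model in which heterotopic ossification (HO), bone in the wrong place, forms at the cut tendon. All 3 sites came from 10-week-old C57BL/6J males that carried both injuries, so no uninjured cells enter any comparison. Bone marrow was flushed and blood mononucleated cells were taken from a density gradient, each followed by red cell lysis, whereas the tendon injury site was minced and digested with enzymes at 37°C, and the cells of each site were unsorted. There was 1 library per site, and no source used here gives the number of mice behind each. Differences between sites therefore have no replicate check and no test was made, and the effect of the site cannot be told apart from that of its preparation or its library.

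Classical monocytes are made in the bone marrow, leave it through the chemokine receptor CCR2, carry the surface protein Ly6C at high density, and enter injured tissue from the blood within days. There they make inflammatory cytokines and, as they mature into macrophages, lose Ly6C and gain genes of lysosomes, lipid handling, and scavenging. Complement C1q is one of the products that mark the mature end of that series, so cells low in C1q are taken to lie near its start.

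The tendon library held 5629 cell barcodes with 90621052 UMIs in total, the blood library 2241 with 22542581, and the bone marrow library 1855 with 49580625, of which 651, 57, and 15 failed the cell filter. Tendon monocytes held 7921973 UMIs together, with a median of 11223 per cell (range 1317 to 72845), a median of 2601 detected genes, and a median of 3.65% mitochondrial UMIs. The same rule found 283 of 2184 blood cells (12.96%, 11.6% to 14.4%) with a median of 18283 UMIs and 148 of 1840 bone marrow cells (8.04%, 6.84% to 9.38%) with a median of 18524. A further group from the tendon library served for comparison, 450 cells with at least 10 UMIs per 10000 of C1q, the same limits on *Csf1r*, class II, *S100a8* and *S100a9*, and cycling, no requirement on *Ccr2*, *Ly6c2*, and *Ms4a4c*, and fewer than 2 UMIs of the resident macrophage genes *Folr2* and *Cd163*. These are called C1q macrophages. A level is a gene's UMIs, summed over a group of cells, per 1000000 UMIs of that group (CPM), with exact Poisson 95% intervals, and a 3′ library counts molecules whatever their length. Intervals cover counting error only, not the spread between cells or between mice.

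Of the 4978 cells, 2770 held *Csf1r*, 1767 of these passed the monocyte sum, 883 were low in C1q, 714 were also low in class II, 682 passed the neutrophil limit, and 665 passed the cycling limit. The C1q limit alone kept out 661 cells that met every other condition, the monocyte sum 247, the class II limit 161, the neutrophil limit 32, and the cycling limit 17. Most tendon monocytes lay far from the C1q limit, since 452 of 665 held no C1q UMI and 428 held no class II UMI. The member nearest to the C1q limit had 9.97 UMIs per 10000 and the nearest cell outside had 10.1. For class II these values were 29.9 and 30.05, for *S100a8* and *S100a9* 1.53% and 2.02%, for cycling 4 and 5 UMIs, and for the monocyte sum 3 and 2 UMIs. The plot of C1q against class II shows that C1q had no gap at its limit.

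**Figure D1:**
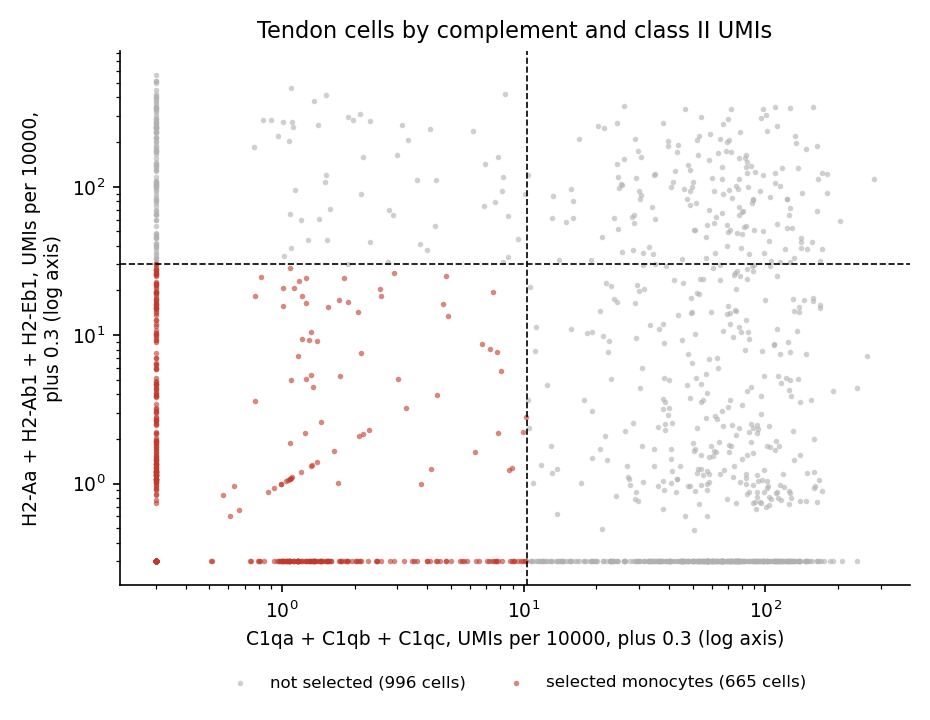
Each point is a tendon injury site cell that met every condition except those on C1q and class II, placed by the UMIs per 10000 of the 3 C1q genes (horizontal) and the 3 class II genes (vertical), with 0.3 added so that cells at 0 can be drawn on log axes. Dashed lines are the limits of 10 and 30, and the 665 selected cells (red) lie mostly at 0 on one or both axes.

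*Csf1r*, the receptor for the macrophage growth factor, was at 324 CPM in tendon monocytes, 363 in blood monocytes, and 241 in bone marrow monocytes. *Ccr2* (GRCm38, chromosome 9, 124101950 to 124113557) was at 728, 1084, and 1514 CPM, *Ms4a4c* (chromosome 19, 11404770 to 11427246), a membrane protein of the CD20 family, at 330, 549, and 502 CPM, and *Ly6c2* (chromosome 15, 75108158 to 75111970), which encodes Ly6C, at 307 (295 to 320), 1030 (1002 to 1058), and 1718 (1670 to 1767) CPM. These genes chose the cells, so their levels only describe them. No *Ly6c2* UMI was found in 252 of 665 tendon monocytes (37.9%), against 34 of 283 in blood (12.0%) and 2 of 148 in bone marrow (1.35%). Those tendon cells met the rule through *Ccr2* and *Ms4a4c*, and no *Ccr2* UMI was found in 14 members and no *Ms4a4c* UMI in 102. The *Ly6c2* shares were taken at full depth, with medians of 11223 UMIs per cell in tendon, 18283 in blood, and 18524 in bone marrow monocytes. The part of depth in their difference was not tested.

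*F10* (chromosome 8, 13037308 to 13056676), which encodes coagulation factor X and was not used by the rule, was at 256 CPM (245 to 267) in tendon monocytes, 280 (265 to 295) in blood monocytes, 289 (269 to 309) in bone marrow monocytes, and 58.3 (52.0 to 65.1) in C1q macrophages. The 3 monocyte groups lay close together and C1q macrophages were well below them, at a log2 ratio of tendon monocytes to C1q macrophages of 2.13 (1.96 to 2.31). A *F10* UMI was seen in 71.9% of tendon monocytes, 90.5% of blood monocytes, and 93.2% of bone marrow monocytes. These libraries differ in depth, and after each cell was thinned to 2000 UMIs the shares were 36.3% (32.6% to 40.1%), 39.6% (33.8% to 45.5%), and 39.2%, with 1 shallower tendon cell left out. Among collagen-rich tendon cells, which should lack factor X, the thinned share was 0.134% and the unthinned share 1.72% at a median of 33536 UMIs, so the values in monocytes are not at the level of free RNA. Other monocyte genes outside the rule, *Plac8*, *Ifitm6*, *Hp*, *Chil3*, and *Vcan*, were more than 2-fold higher in tendon monocytes than in C1q macrophages. Of the 14 monocyte identity genes counted, 7 were higher, 1, *Irf8*, was lower, and 6 were within 2-fold, so the markers went with the monocyte label in part, and part of the group also held macrophage genes, described below.

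A few members carried transcripts of structural cells. At least 10 UMIs per 10000 of the fibroblast, endothelial and mural, and keratinocyte marker lists were found in 23 tendon monocytes (3.46%), and these cells held 92.3% of such UMIs. This was the case for 10 C1q macrophages and for no blood or bone marrow monocyte. The fibroblast list summed to 1392 CPM, led by *Col3a1* at 345 CPM, with *Tnmd* at 0. The endothelial and mural list summed to 225 CPM, led by *Acta2* at 160, and the keratinocyte list to 159, led by *Krt14* at 91.6. Without the 23 cells, *Prg4*, which encodes lubricin and was among the 10 genes with the largest ratio to blood, went from 756 to 9.54 CPM, *Sparc* from 336 to 13.9, and *Col3a1* from 345 to 22.0. The main counts of genes past 2-fold were also made without the 23 cells. Neutrophil markers summed to 647 CPM, led by *S100a8* at 303, with *Ly6g* at 0. Markers of T and NK cells summed to 0.505 CPM with 6 of 9 at 0, B cell markers to 6.94 with 2 of 5 at 0, dendritic cell markers to 31.6, led by *Clec10a* at 20.6, with *Cd209a* at 0, and mast cell and basophil markers to 3.53 with 2 of 6 at 0. The erythroid and platelet list summed to 1213 CPM, of which *Pf4* gave 1158 and *Ppbp*, also a chemokine of platelets, 54.3, whereas *Gp9* and *Alas2* were among 5 of 10 at 0. *Ppbp*, like *Pf4*, was higher than in blood monocytes, where it had 0 UMIs, and the part of platelet RNA in either value was not tested. Taking the expected number of doublets from each library's size marked 28 of the 665 cells. The tendon library shared 6 barcodes with blood, of which 1 met the rule, and 1 with bone marrow.

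Blood monocytes chosen by the same rule are the circulating counterpart, and the comparison asks what differed between cells in blood and in the injured tendon. Among 7387 genes with at least 100 UMIs in both groups together and outside the rule, 896 (12.1%) were at least 2-fold higher in tendon monocytes and 788 (10.7%) at least 2-fold lower, and the median log2 ratio of all of them was -0.10. Without the 23 cells with structural transcripts, 694 of 7032 genes (9.87%) were higher and 814 (11.6%) lower. Against bone marrow monocytes, 913 of 6955 (13.1%) were higher and 803 (11.5%) lower with a median of -0.18, and when ratios were centred on that median the counts were 1071 and 562. Without the 23 cells, 736 of 6546 genes were higher than in bone marrow and 823 lower, and ratios to blood centred on their median gave 993 higher and 663 lower, so in both comparisons the balance between higher and lower changed with these cells and with the scaling. Both comparisons share the same 665 tendon cells. The list counts below are read against these shares.

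Among the lists of cell functions, those of other cell types aside, secreted factors had the highest median ratios to blood. This order is descriptive only. Blood had 0 UMIs for 8 of the 17 chemokine genes listed and for 7 of 21 cytokine genes. Such genes reach the UMI minimum only through tendon cells, so they can only come out higher, at a ratio set by the floor of 3 counts. Of 16 chemokine genes counted against blood, 14 were at least 2-fold higher in tendon monocytes and 1, *Ccl5*, lower, with a median log2 ratio of 4.71. Without the 23 cells these counts were 13 and 1 of 15, and against bone marrow monocytes 14 and 0 of 15. *Cxcl2*, *Cxcl1*, and *Cxcl3* encode ligands of the neutrophil receptor CXCR2 and lie close together on chromosome 5 of GRCm38, at 90903871 to 90905938, 90891241 to 90893115, and 90786103 to 90789600. Promoters of such genes often hold sites for NF-κB, so the κB-type motif GGGNNNTTCC was searched on both strands in the promoter windows of RefSeq (GRCm38.p6, 250 bases before to 50 bases after each start). It was present in 1825 of 32851 windows (5.56%) and in 5 of the 11 windows found for the 17 chemokine genes listed. The stretch from 120 to 31 bases before the RefSeq start is shown for these 3 genes, plus strand, 5′ to 3′, with every match in capitals. The RefSeq start of each gene is not the same base as the gene start given above. A match describes the letters only and is not evidence of binding.
Cxcl2 (chr5:90903779-90903868): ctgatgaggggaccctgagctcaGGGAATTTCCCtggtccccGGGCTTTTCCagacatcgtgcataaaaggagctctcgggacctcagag
Cxcl1 (chr5:90891125-90891214): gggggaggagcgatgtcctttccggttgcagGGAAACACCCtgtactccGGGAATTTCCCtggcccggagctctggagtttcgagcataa
Cxcl3 (chr5:90785981-90786070): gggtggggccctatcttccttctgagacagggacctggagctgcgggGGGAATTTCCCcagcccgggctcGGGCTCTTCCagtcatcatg
Each stretch held 3 matches, overlapping ones on the opposite strands included.

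*Cxcl2* was at 6545 CPM (6489 to 6602) in tendon monocytes, with 0 UMIs in blood and in bone marrow monocytes, which allows up to 0.59 and 1.05 CPM there. Setting blood at the floor of 3 UMIs for the whole group, this was at least 11087-fold higher. After thinning, 78.6% of tendon monocytes held a *Cxcl2* UMI, against 27.9% of collagen-rich cells. It was the most abundant chemokine transcript of the list, the median member had 35.4 UMIs per 10000, and the 67 cells with most of it held 37.3% of its UMIs. It was not particular to monocytes, at 4522 CPM in C1q macrophages, 371 in collagen-rich cells, and 16490 in tendon neutrophils, 479 cells with at least 2% *S100a8* and *S100a9* and a *Csf3r* UMI. *Cxcl1* was at 542 CPM, at least 918-fold above blood, but collagen-rich cells held 1414 CPM, and tendon monocytes held 436 CPM without the 23 cells. *Cxcl3* was at 80.5 CPM, at least 136-fold above blood.

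*Ccl2*, the main ligand of CCR2, was at 369 CPM (355 to 382) in tendon monocytes, 13.2 (10.2 to 16.7) in blood, and 4.91 (2.68 to 8.23) in bone marrow, with a tendon-to-blood log2 ratio of 4.81 (4.46 to 5.18). *Ccl7*, another ligand of CCR2, was at 126 CPM with 0 UMIs in both other groups. *Ccl6*, which blood monocytes already held at 703 CPM, was at 1601 CPM in tendon monocytes, a smaller step than for the other ligands named. *Pf4*, or CXCL4, a chemokine of platelets and of some macrophages (chromosome 5, 90772435 to 90773383), was at 1158 CPM (1134 to 1181) against 0.59 (0.122 to 1.73) in blood, from 3 UMIs, with a log2 ratio of 10.94 (9.39 to 13.22). It was more concentrated than *Cxcl2*, with no UMI in 364 of 665 members and 81.2% of its UMIs in the 67 cells with most of it.

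Cytokine and growth factor genes were higher as well, 14 of 18 counted against blood and none lower, with a median log2 ratio of 4.92. Of those 14, *Il1a*, *Il10*, *Igf1*, *Pdgfa*, *Ereg*, and *Hbegf* had 0 UMIs in blood. They were counted only through their tendon UMIs and could only come out higher. The counts against bone marrow were also 14 and 0 of 18, and without the 23 cells 10 and 0 of 14 against blood. *Il1b* was at 1835 CPM (1806 to 1865) in tendon monocytes, 33.5 (28.6 to 38.9) in blood, and 3.86 (1.92 to 6.90) in bone marrow, with a tendon-to-blood log2 ratio of 5.78 (5.56 to 6.005). *Tnf* was at 311 CPM against 2.75 and 2.10, a log2 ratio to blood of 6.82 (6.07 to 7.69), and the oncostatin gene *Osm* at 92.3 CPM against 3.54 and 2.80. *Il10*, an anti-inflammatory cytokine, was at 87.9 CPM with 0 UMIs in both other groups, and *Il1rn*, the natural blocker of the IL-1 receptor, was at 79.7 CPM against 5.90 and 6.66. *Vegfa*, a growth factor for vessels, was at 85.2 CPM against 0.197 in blood, from 1 UMI, with a log2 ratio of 8.76 (6.28 to 14.06). *Spp1*, which encodes osteopontin, was at 818 CPM against 5.31 and 10.9. These genes were not all highest in monocytes. Against tendon neutrophils, 6 of 19 cytokine genes were at least 2-fold lower in tendon monocytes, among them *Il1b*, *Tnf*, and *Il1rn*. Another 8 were higher, among them *Il10* and *Vegfa*. Of all 6530 genes counted there, 2781 were higher and 615 lower.

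**Figure D2:**
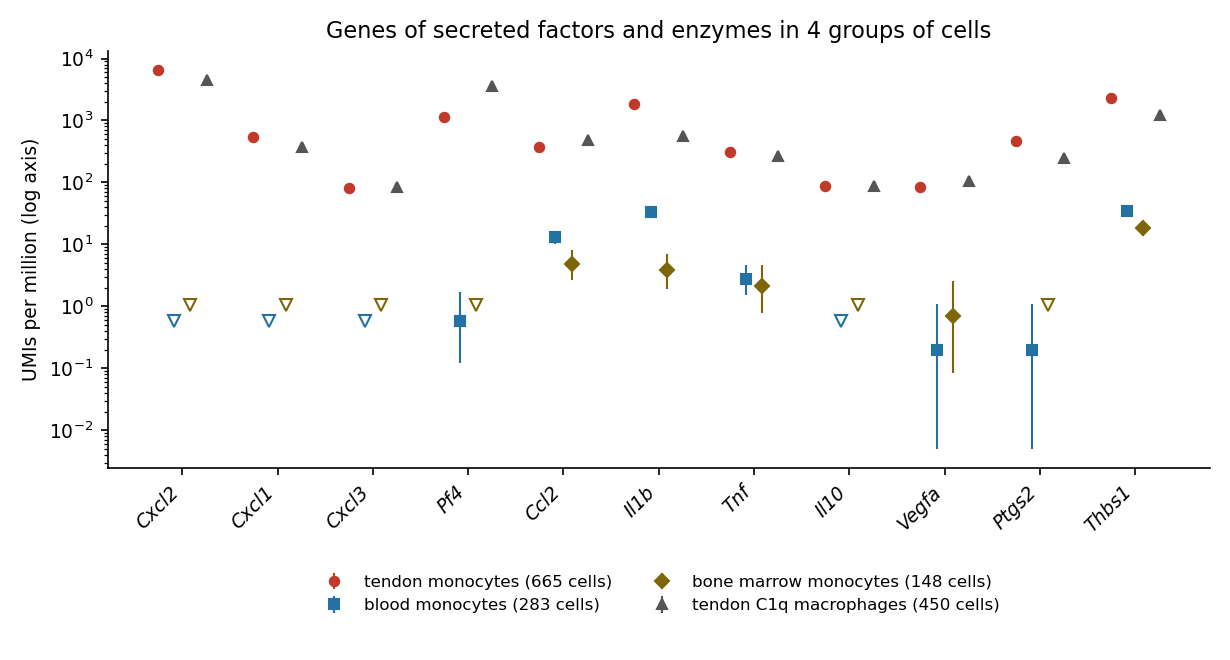
Levels (CPM, log axis) of 11 genes of secreted factors and enzymes in tendon monocytes, blood monocytes, bone marrow monocytes, and C1q macrophages, with exact Poisson 95% intervals as bars. Open triangles mark groups with 0 UMIs and stand at their upper limit. Every gene was higher in tendon monocytes than in blood or bone marrow monocytes, and *Il1b* was at 1835 CPM in tendon monocytes against 553 in C1q macrophages.

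Among enzymes of mediator synthesis, 1 gene stood out. *Ptgs2*, the inducible enzyme of prostaglandin synthesis, was at 467 CPM (452 to 482) in tendon monocytes against 0.197 in blood, from 1 UMI, and 0 UMIs in bone marrow, with a log2 ratio to blood of 11.21 (8.73 to 16.52). *Irg1*, the older symbol of *Acod1*, which makes itaconate, was at 15.8 CPM in tendon monocytes, against 2160 in tendon neutrophils. Part of this value came from the members with most *S100a8* and *S100a9*. With these genes below 0.5% of UMIs, the log2 ratio of *Irg1* to C1q macrophages went from 1.65 to 1.06. Its lower limit against blood, which had 0 UMIs, went from 4.74 to 4.08. *Alox5ap*, which serves leukotriene synthesis and was the most abundant gene of the list, was at 1279 CPM, with 1731 in blood and 1683 in bone marrow. *Cybb*, the catalytic subunit of the phagocyte oxidase, went the other way, at 465 CPM against 1209 in blood and 1326 in bone marrow. In the whole list of 8 counted genes, 4 were higher and 3 lower than in blood.

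Receptors for chemokines and tissue damage were at least 2-fold higher in 12 of 21 and lower in 1, with the same numbers against bone marrow and without the 23 cells. *Clec4e*, which encodes the damage sensor Mincle, was at 580 CPM (563 to 597) in tendon monocytes, 101 in blood, and 74.3 in bone marrow. *Clec4d*, its partner, was at 463, 39.9, and 17.2 CPM, and *C5ar1*, the receptor for the complement fragment C5a, at 249, 39.2, and 16.5 CPM. *Cd14*, the co-receptor for endotoxin, from the monocyte list, was at 1252 CPM against 90.3 and 23.8. Only *Cx3cr1*, the fractalkine receptor, was lower in this list, at 26.6 CPM against 151 in blood and 118 in bone marrow, a log2 ratio to blood of -2.50 (-2.73 to -2.28). Against tendon neutrophils, 10 of 21 receptor genes were at least 2-fold lower in tendon monocytes and 3 higher. *Clec4e*, *Clec4d*, and *C5ar1* were among the lower ones and *Cx3cr1* among the higher.

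Coagulation and fibrinolysis genes were mixed, with 5 of 13 higher and 1 lower than in blood and a median log2 ratio of -0.13. *Thbs1*, which encodes thrombospondin 1, an activator of latent TGF-β, was the most abundant, at 2278 CPM (2245 to 2311) against 34.2 (29.3 to 39.7) in blood and 18.6 in bone marrow, and only 29 of 665 members had none. *Plaur*, the urokinase receptor, was at 367 CPM against 145 and 72.2, whereas *F13a1*, factor XIII, was at 467 against 625 and 906. The matrix and protease list had 12 of 19 genes higher and 1 lower than in blood, and 9 and 1 of 19 without the 23 cells. Of that list, *Sdc4*, a heparan sulfate proteoglycan, was at 212 CPM with 0 UMIs in both other groups, and *Mmp14*, a membrane collagenase, at 67.0 CPM against 0.197 and 0.701.

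Genes of early monocyte identity were mixed, with counts that changed with the cells compared. Of 14 counted, 6 were at least 2-fold lower than in blood and 3 higher, with a median log2 ratio of -0.72. Without the 23 cells 4 were lower and 3 higher, and against bone marrow 3 were lower and 3 higher. Among cells with at least 1 *Ly6c2* UMI, described below, 2 were lower than in blood and 4 higher. *Plac8*, a small protein of classical monocytes (chromosome 5, 100553725 to 100572245), was at 1966 (1935 to 1997), 4596 (4537 to 4655), and 3821 (3750 to 3894) CPM in tendon, blood, and bone marrow, a log2 ratio to blood of -1.23 (-1.25 to -1.20), and *Hp*, haptoglobin, at 603, 1358, and 1298 CPM. *Lyz2*, lysozyme, the most abundant gene of the list, was at 11674, 23764, and 22903 CPM, a log2 ratio to blood of -1.03, or -0.92 without the 23 cells. The higher ones were *Cd14*, *Fcgr1*, and *Klf4*. *Vcan*, the proteoglycan versican, was at 629 CPM against 322 and 441.

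Genes of nonclassical monocytes, the patrolling type that stays in blood, were lower than in blood in 9 of 12 and higher in 1, *Fabp4*, and without the 23 cells in 9 and none of 12. Against bone marrow the list was mixed, with 3 of 10 lower and 3 higher, *Nr4a1*, *Fabp4*, and *Cebpb*. *Ace* was at 8.46 CPM in tendon monocytes, 74.4 in blood, and 14.4 in bone marrow, and *Spn*, or CD43, at 7.57, 67.1, and 35.0. Since *Ly6c2* was without a UMI in 12.0% of the blood monocytes, the comparison was repeated with cells of at least 1 *Ly6c2* UMI in both groups, 413 in the tendon and 249 in blood. There, 657 of 6553 genes (10.0%) were higher and 724 (11.0%) lower, and the nonclassical list had 1 of 10 higher and 6 lower. The log2 ratio of *Ace* was -1.81 and that of *Spn* -1.99, while *Treml4* moved from -1.57 to -0.52. The ratios of *Plac8* and *Hp* were -0.81 and -0.84 in these cells and no longer reached 2-fold.

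Macrophage maturation genes went in the opposite direction, with 21 of 26 counted higher and none lower than in blood, a median log2 ratio of 2.66, and the same counts against bone marrow and without the 23 cells. Among cells with *Ly6c2* the counts were 10 and 0 of 20 with a median of 1.27. *Apoe*, an apolipoprotein, was at 3839 CPM (3796 to 3882) in tendon monocytes, 982 in blood, and 886 in bone marrow. *Mrc1*, the mannose receptor CD206, was at 293 CPM against 0.59 in blood, from 3 UMIs, and 0.701 in bone marrow, with a log2 ratio to blood of 8.96 (7.41 to 11.24). *Lgmn*, a lysosomal protease, was at 790 CPM against 125 and 84.8. *Ms4a7* was at 166 CPM against 18.7 and 19.3. *Sepp1*, selenoprotein P, was at 474 CPM against 200 and 159, but its log2 ratio to blood went from 1.24 to 0.27 among cells with *Ly6c2*.

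**Figure D3:**
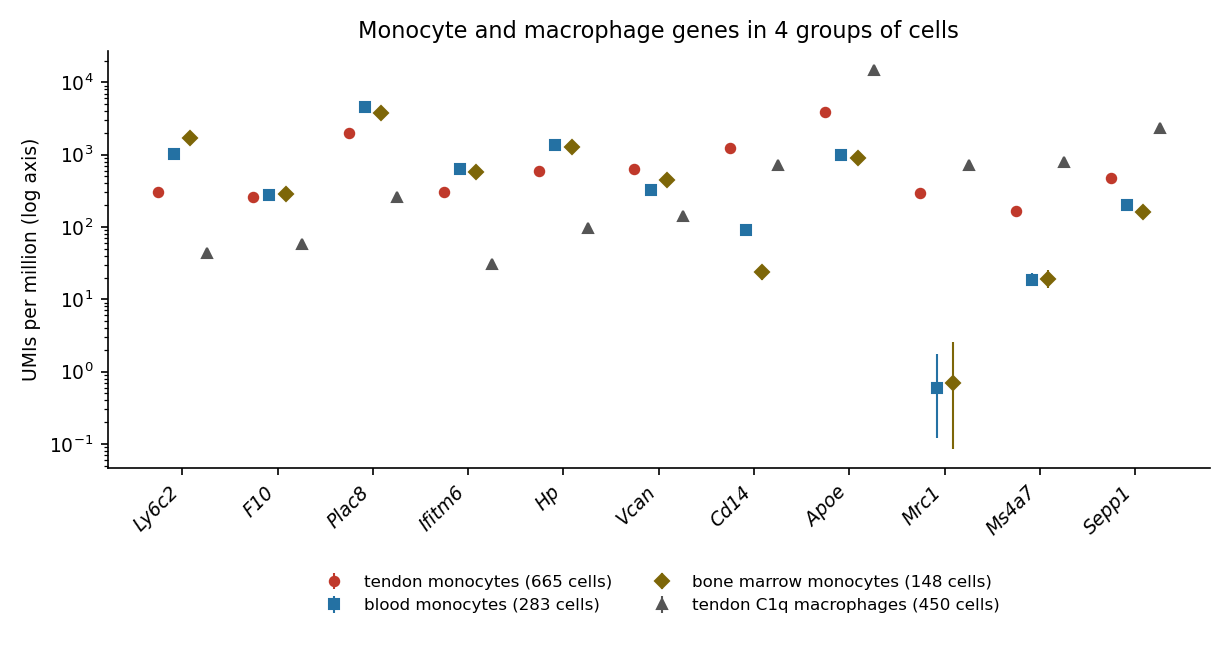
Levels (CPM, log axis) of monocyte genes (*Ly6c2* to *Cd14*) and macrophage genes (*Apoe* to *Sepp1*) in the 4 groups, with exact Poisson 95% intervals as bars. *Ly6c2* was part of the rule. *Plac8*, *Ifitm6*, and *Hp* in tendon monocytes lie between blood monocytes and C1q macrophages, as do *Apoe*, *Mrc1*, *Ms4a7*, and *Sepp1*, while *F10* lies with the blood.

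Stress and metabolism genes differed too. Of the oxidative stress and iron list, 9 of 16 were higher than in blood and 1 lower. *Slc7a11*, the cystine importer, was at 288 CPM (277 to 300) against 3.54 and 1.05, *Hmox1*, heme oxygenase 1, at 339 against 85.4 and 97.4, and *Fth1*, ferritin heavy chain, at 10501 against 2726 and 2649. Of the hypoxia and glycolysis list, 6 of 21 were higher, led by *Hilpda* at 183 CPM against 3.15 and 1.75, and *Slc2a1*, a glucose transporter, was at 53.1 against 14.4 and 12.3. Interferon response genes were mostly within 2-fold, with 1 of 19 higher (*Rsad2*, at 43.0 CPM against 10.0 in blood) and 5 lower, among them *Ifi47* at 24.9 CPM against 53.7. Of 9 antigen presentation genes outside the rule, only *Cd86* at 99.8 against 21.6 and *Cd80* at 19.7 against 5.51 CPM, both T cell costimulators, were higher by 2-fold.

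Genes known to respond to tissue digestion also stood higher, 17 of 22 against blood with 1, *Klf2*, lower, and 18 and 1 of 22 against bone marrow. The list summed to 15132 CPM in tendon monocytes, 5528 in blood, 4412 in bone marrow, and 14617 in C1q macrophages. Its most abundant member was *Ier3* at 2743 CPM against 26.0 in blood, and *Nfkbia*, the inhibitor of NF-κB, was at 2307 against 175. Only the tendon was digested, and the part of digestion in the higher inflammatory genes was not tested. At the low end of the comparison with blood, among the 10 genes with the lowest ratios, stood replication-dependent histone genes, *Hist1h1e* at 4.54 CPM against 149, *Hist1h2ap* at 2.65 against 74.6, and *Hist1h4d* at 3.16 against 82.1, and bone marrow held them at 129, 50.5, and 80.6 CPM. *Calhm2*, a channel protein, was at 1.64 CPM against 53.1, *Il16* at 6.44 against 67.9, and *Hpgd*, which degrades prostaglandins, at 6.69 against 69.5. *Elane*, a granule protease of early myeloid cells, was at 0.505, 5.12, and 375 CPM in tendon, blood, and bone marrow, and *Mpo*, myeloperoxidase, at 0.379, 1.38, and 208 CPM.

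C1q macrophages came from the same digested library, and the comparison describes what went with low C1q among *Csf1r*-positive cells. C1q and the *Ccr2*, *Ly6c2*, and *Ms4a4c* sum separated these groups, so the values are descriptive. Of 7399 genes outside both rules, 293 (3.96%) were at least 2-fold higher in tendon monocytes and 294 (3.97%) at least 2-fold lower, with a median log2 ratio of -0.06. Without cells with structural transcripts in either group, 169 of 7050 (2.40%) were higher and 335 (4.75%) lower. The dissociation list differed little between these groups, with 1 of 22 higher (*Hspb1*) and none lower, and without cells with structural transcripts none of 21 higher and 1 lower (*Atf3*).

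Monocyte identity genes were higher than in C1q macrophages in 7 of 14 and lower in 1, *Irf8*. *Ifitm6* was at 301 CPM against 30.3 in C1q macrophages and *Plac8* at 1966 against 261, a log2 ratio of 2.91 (2.83 to 2.99). *Slpi*, a protease inhibitor, was at 426 against 69.9 CPM. *Ear2*, an eosinophil-type ribonuclease also of nonclassical monocytes, was at 28.3 against 1.12 CPM. *F5*, coagulation factor V, was at 24.1 CPM against 3.55, a log2 ratio of 2.76, whereas *F7*, factor VII, was at 9.09 against 22.2. After thinning to 2000 UMIs the log2 ratio of *F7* went from -1.29 to -0.60 and that of *F5* to 4.61. Few UMIs of *F7*, and of *F5* in C1q macrophages, remain after thinning, so counting error in both thinned ratios is large. Of the 14 coagulation and fibrinolysis genes counted, 3 were higher, 1 was lower, and 10 were within 2-fold. *Thbs1* was at 2278 against 1228 CPM.

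Maturation genes were lower in 21 of 25 counted and higher in none, and in 20 of 25 without cells with structural transcripts. *Gpnmb*, a glycoprotein of lipid-laden macrophages, had the lowest ratio among the genes named, at 13.1 CPM (10.7 to 15.9) against 255 (242 to 269), a log2 ratio of -4.28 (-4.58 to -3.99), or -3.47 with C1q below 20 per 10000. *Apoe* was at 3839 against 14877 CPM, *Sepp1* at 474 against 2362, *Fabp5*, a fatty acid carrier, at 419 against 1724, and *Trem2*, a lipid receptor, at 247 against 614. Tendon monocytes were therefore above blood and below C1q macrophages for these 4 genes, although *Trem2* was within 2-fold of its 151 CPM in blood.

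For secreted factors, the 2 tendon groups differed by gene. No chemokine was at least 2-fold higher in tendon monocytes, and 7 of 15 were lower, among them *Ccl8* at 14.5 against 166 CPM, *Ccl12* at 17.0 against 115, and *Ccl7* at 126 against 282. *Cxcl2* was at 6545 against 4522 CPM, a log2 ratio of 0.53, and *Pf4* at 1158 against 3563, a log2 ratio of -1.62 (-1.66 to -1.59). Of 19 cytokine genes, 5 were higher and 4 lower, and 3 and 4 of 17 without cells with structural transcripts. *Il1b* was at 1835 against 553 CPM, a log2 ratio of 1.73 (1.67 to 1.79), and *Il6* at 42.0 against 8.97, or 18.1 in tendon monocytes without the 23 cells. *Spp1* was at 818 against 2086 CPM, a log2 ratio of -1.35, or -0.99 with C1q below 20 per 10000, and *Tnf* at 311 against 269 and *Il10* at 87.9 against 88.0 were nearly level. Among receptors, 5 of 21 were higher and 1 lower, with *Trem1*, an amplifier of inflammatory signals, at 128 against 34.4 CPM and the decoy receptor *Il1r2* at 115 against 24.1. Both *Trem1* and *Il1r2* were at least 2-fold lower in tendon monocytes than in tendon neutrophils.

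Interferon response genes were lower than in C1q macrophages in 12 of 20 and higher in 1, or 10 and 1 of 20 without cells with structural transcripts. *Ifit2* was at 9.09 CPM (7.11 to 11.4) against 80.9 (73.5 to 88.9), a log2 ratio of -3.15 (-3.53 to -2.79), and *Ifit3* at 11.6 against 81.8. The exception was *Ifitm3*, at 2926 against 1342 CPM. *Slc7a11* was at 288 against 105 CPM and *Hmox1* at 339 against 793, so these genes of the oxidative stress list stood on opposite sides. None of 9 antigen presentation genes differed by 2-fold.

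Among themselves, tendon monocytes were ranked by *Ly6c2* UMIs per 10000 and split into a low group of 222 cells, all with 0, a middle group of 222 cells from 0 to 3.21, and a high group of 221 cells from 3.22 to 29.6, with cells at the same value kept in file order. *Ly6c2* was also part of the rule, so the split describes the group. Median depths were 10636.5, 11343, and 11495 UMIs, so depth differed little, and 62.2%, 64.4%, and 77.4% of the cells held no C1q UMI. Of 4695 genes, 285 (6.07%) were at least 2-fold higher in the low than in the high group and 92 (1.96%) at least 2-fold lower, with a median log2 ratio of 0.10. Structural transcripts moved with this split, since the fibroblast list summed to 1539, 2333, and 189 CPM in the low, middle, and high groups and 6 of its 6 counted genes were higher in the low group. Without the 23 cells, 216 of 4412 genes (4.90%) were higher in the low group and 87 (1.97%) lower. Whether the groups hold separate cell types was not tested, and *Ly6c2* can be missed by chance in a cell.

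Maturation genes were higher in the low group in 22 of 25 and lower in none, and in 19 of 22 and none without the 23 cells. *Apoe* was at 6596 CPM in the low, 3236 in the middle, and 1811 in the high group, *Mrc1* at 591, 241, and 61.2, *Ms4a7* at 327, 123, and 57.6, and *Pf4* at 2505, 821, and 214. *Folr2* and *Fcrls*, genes of resident macrophages, were highest in the low group, at 69.1, 12.6, and 1.18 CPM and at 83.5, 8.37, and 1.57 CPM. Each of these genes was lower in each group with more *Ly6c2*, with log2 ratios of low to high from 1.87 (1.82 to 1.91) for *Apoe* to 5.88 for *Folr2*.

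Monocyte identity genes were lower in the low group in 6 of 14 and higher in 1, *Klf4*, the same counts as without the 23 cells. *F10* was at 132 CPM in the low, 253 in the middle, and 381 in the high group, a log2 ratio of low to high of -1.53 (-1.71 to -1.34), *Plac8* at 781, 1916, and 3185, and *Ifitm6* at 97.5, 241, and 567. In the high group *F10* was thus above the 280 CPM of all blood monocytes, and *Plac8* was below their 4596. Adhesion genes outside the rule had 1 of 12 higher and 3 lower, or none and 3 of 11 without the 23 cells, among them the integrin *Itgb7* at 31.2, 73.9, and 123 CPM.

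Inflammatory genes did not share one order. *Cxcl2* was at 6450, 6221, and 7002 CPM, within 2-fold, with a log2 ratio of -0.12 (-0.15 to -0.09), and *Ier3* at 2447, 2792, and 2979. *Il1b* was at 1173, 1975, and 2328 CPM, with a log2 ratio of -0.99 (-1.05 to -0.93), and *Slc7a11* at 162, 306, and 392.4, while *Tnf* was at 365, 314, and 253 CPM. Of 14 chemokine genes, 6 were higher in the low group and none lower, or 5 and none without the 23 cells, with *Ccl7* at 211, 138, and 27.8 CPM. *Il10* was at 113, 102, and 46.7 CPM and *Spp1* at 1095, 1014, and 325, while *Mmp9*, a gelatinase among the 10 genes with the largest ratios, was at 80.3, 12.6, and 7.06. Interferon response genes had none of 10 past 2-fold in either direction, and the dissociation list 3 of 20 higher and none lower.

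**Figure D4:**
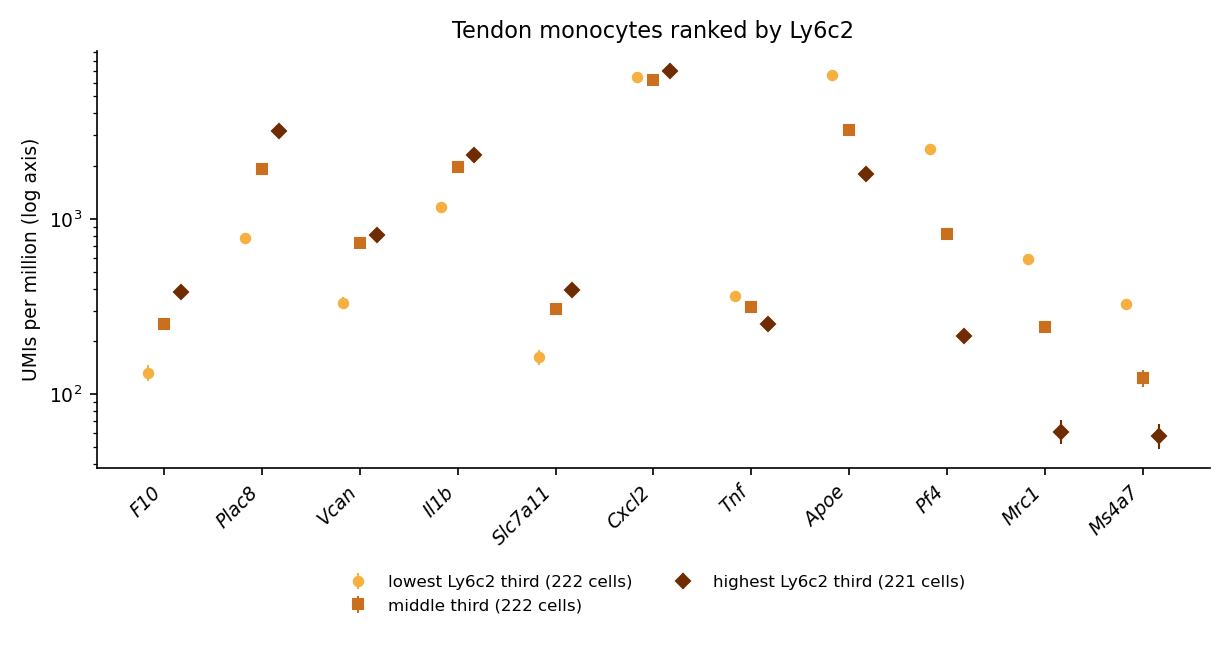
Levels (CPM, log axis) of 11 genes in tendon monocytes ranked by *Ly6c2* and split into low (222 cells), middle (222), and high (221) groups, with exact Poisson 95% intervals as bars. *F10*, *Plac8*, *Vcan*, *Il1b*, and *Slc7a11* go up with *Ly6c2*, *Apoe*, *Pf4*, *Mrc1*, and *Ms4a7* go down, and *Cxcl2* is nearly level.

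The distribution of transcripts over members differed by gene group. Per member, the monocyte identity list summed to a median of 236 UMIs per 10000 (range 9.83 to 618), the maturation list to 97.6 (25.2 to 1215, middle 50% of members from 58.7 to 173), the chemokine list to 76.1 (0 to 493), and the dissociation list to 147 (35.4 to 458). At full depth, *Thbs1*, *Cd14*, and *Ier3* had a UMI in nearly all members, with no UMI in 29, 24, and 17 of 665. No share in collagen-rich cells is given for these 3 genes, so the part of free RNA in these values was not tested. Other genes were found in fewer members, with no UMI of *Il10* in 536, of *Cxcl3* in 534, of *Ccl7* in 517, and of *Spp1* in 327, and the 67 cells with most of each held 88.8%, 88.6%, 89.2%, and 76.8% of its UMIs, so most of their UMIs came from part of the group. *Il1b* had a median of 9.65 UMIs per 10000, 57.2 at the 90th percentile, and 139 at the highest, with none in 106 members, and *Apoe* a median of 23.4, 102, and 818, with none in 46. The maturation list includes *Ctss*, cathepsin S, which differed little between the groups, at 1634 CPM in tendon monocytes and 1814 in blood, so its lowest sums are not a sign of macrophage genes in every member.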

How the data were processed

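For each of 3 libraries the authors deposited a matrix of raw UMI counts over 27998 genes, without normalization. The matrix header names Cell Ranger 5.0.1 and the labels name mm10. Members, gene lists, and comparisons were chosen with earlier results of these data known. The genes named are those of the rule, *F10*, listed genes with the highest CPM or largest ratio, and per comparison the 10 genes with the largest ratio in each direction. Among 24 gene lists, 5 genes were not found in the files. Counts were summed over cells and scaled to CPM. For log2 ratios, 95% intervals follow from how UMIs split binomially between groups (exact), and where a group had 0 UMIs a floor of 3 counts was used, also in medians. No test was made, since each site has 1 library, and "counted" genes had at least 100 UMIs. *Folr2* and *Cd163* were left out against C1q macrophages. Scrublet's automatic calls (scanpy 1.11.5) marked 6 of 4978 tendon cells, so doublets were also removed at 0.8% of cells per 1000 cells as an alternative. Positions came from GENCODE M21. Intervals were tried on sums simulated with the same kind of counting error, which cannot show how well they hold under spread between cells or mice. Python 3.11.15, numpy 2.4.6, scipy 1.17.1, pandas 2.3.3, and matplotlib 3.10.9 were used. Other filters, limits, scalings, and depths were tried as alternatives. Some genes that the naming rule would take are not reported here, though they count in list totals.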

Additional observations from a re-analysis of the deposited data

How the results depend on the processing

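The share of tendon cells that met the rule was 11.8% with no cell filter, 12.0% with at least 6 identity UMIs, 14.6% with C1q below 20 per 10000, 12.3% with class II below 15 per 10000, and 8.30% with at least 1 *Ly6c2* UMI, the last chosen after seeing the data. Counts of genes past 2-fold changed with the UMI minimum and with depth, and not only through the number of genes counted. In the low against the high *Ly6c2* group, 285 of 4695 genes were higher in the main analysis and 1153 of 8646 with at least 20 UMIs. Against C1q macrophages these were 293 of 7399 and 813 of 10594. After thinning to 2000 UMIs, 323 genes were higher and 179 lower than in blood, of 2367 counted. Against bone marrow these were 349 and 129 of 2079, and against C1q macrophages 80 and 95 of 2707. Between the low and high *Ly6c2* groups they were 47 and 25 of 1106. In the same order, at least 500 UMIs gave 386 and 244 of 3116, 377 and 182 of 2657, 89 and 101 of 3173, and 59 and 33 of 1266. At least 20 UMIs gave 1808 and 1463 of 10532, 1809 and 1617 of 10315, 813 and 640 of 10594, and 1153 and 228 of 8646. Without cells with structural transcripts, an alternative chosen after seeing the data, 169 of 7050 genes were higher than in C1q macrophages. *Acta2* against blood then went from 3.45 to -0.011 (log2), and against C1q macrophages *Prg4* went from 5.14 to -0.37, *Sparc* from 2.08 to -0.055, *Dcn* from 2.84 to -0.53, and *Timp1* from 1.94 to -0.36. Of 103 named genes past 2-fold against blood, 14 came under it in some alternative, and of 67 against C1q macrophages, 15 did. Lower limits for genes at 0 UMIs and ratios to blood resting on 1 to 3 UMIs depend on depth. After thinning, *Pf4* stood at 7.77, *Mrc1* at 5.73, *Ptgs2* at 6.46, *Vegfa* at 3.93, and *Mmp14* at 3.52. These values rest on the floor of 3 counts in blood, so they are lower limits and not measured falls. Ratios that rest on more blood UMIs in the main analysis also moved with thinning, in both directions. *Tnf* went from 6.82 to 7.42, *Osm* from 4.70 to 5.81, and *Rsad2* from 2.10 to 3.37, while *Cd63* went from 6.23 to 5.22. Few blood UMIs of these genes remain at 2000 UMIs per cell, so counting error in the thinned ratios is large. They are not measured effects of depth. Against C1q macrophages, thinning moved *Ifit2* to -4.03 and *Ear2* to 3.37, which also rest on few UMIs. C1q below 20 per 10000 moved *Ifitm6* to 4.04 and C1q below 5 moved *Ccl12* to -3.36. No paired analysis was possible because there is 1 library per site, and for the same reason no replicate could be left out.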
